A study of Mus musculus with 6 samples.

Results

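The genes described here are those of the contractile and calcium-handling machinery of heart muscle, a list of 38 mouse genes matched by symbol to the deposited table. Of the 38, 37 were among the 16199 genes of the table, and 36 of these had a mean value of at least 1 over the 6 libraries and were tested. Sln, the gene of the small calcium-pump regulator sarcolipin, was not analysed here, and the atrial light chain gene Myl7 was listed at too low a value to be tested. The libraries were made from poly(A)-enriched RNA of infarcted mouse myocardium, taken 7 days after the left anterior descending coronary artery had been tied off in both groups. A group of 3 libraries was labelled wild type, and a group of 3 was labelled ITIH5 knockdown, called the knockdown-labelled group below. Itih5 encodes a secreted protein that binds hyaluronan in the matrix, and the stated interest was fibrosis after infarction. The sources used here give neither the way the knockdown was made nor the cells it reaches, nor the strain, age or sex of the mice. The labels name no separate animals behind the libraries of a group, so p-values below measure only the spread between libraries, which may be technical.

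The sarcomere is the repeating contractile unit of striated muscle, in which myosin heads of the thick filament pull on actin of the thin filament. Calcium released from the sarcoplasmic reticulum through the ryanodine receptor binds troponin C and switches the thin filament on, and a calcium pump then returns it to the store. In the infarcted wall, dead muscle is replaced by immune cells and by a fibroblast scar, so RNA of the tissue comes from several cell types besides muscle. In bulk tissue RNA, fewer muscle cells and less of a transcript in each muscle cell cannot be told apart.

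The members lie on 17 chromosomes and all 37 are annotated as protein coding in GENCODE M21 on mm10. Only 3 pairs lie within 1 Mb of each other: Myl7 and Pgam2 on chromosome 11 (92904 bases apart), Actn2 and Ryr2 on chromosome 13 (162481 bases) and Myl2 and Atp2a2 on chromosome 5 (340041 bases). For 30 of the members, RefSeq's table of promoters on GRCm38.p6, the assembly behind mm10, held an entry within 100 bases of an annotated protein-coding start. The 250 bases before the start were searched for 5 short motifs, and a match is a description of letters, not of a bound site. The MEF2 motif and the CArG motif, which are read by MEF2 factors and by SRF in muscle, were searched on both strands. MEF2 was found in 6 of 30 members (20%), against 2.63% of 15223 genes searched the same way, and CArG in another 6 (20%), against 1.39%. CATTCC, the letters read by TEAD factors, was searched on both strands and found in 6 (20% against 11.3%). CANNTG, the E-box, which reads the same on both strands, was found in 26 (86.7% against 62.4%). TATAAA on the gene's strand was found in 1, Pln (3.33% against 8.11%). No match in a member shared bases with a match of another of the 5 motifs.

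The following 30-base stretches from these windows are shown as examples of the muscle motifs, in capitals, in members whose values are given below. They were chosen after the values were seen.
Ttn MEF2, chr2:76982694-76982723, minus strand: ttctgaaaggCTAAATTTAGcactgccaat
Mybpc3 MEF2, chr2:91118044-91118073, plus strand: tggaatttgtCTATATTTAGcaggtggcta
Pgam2 MEF2, chr11:5803857-5803886, minus strand: ttttgtgagaCTATTTTTAAgttcagctcc
Casq2 MEF2, chr3:102086336-102086365, plus strand: attgcatgatTTATTTTTAGctcgaaacaa
Myl3 CArG, chr9:110763583-110763612, plus strand: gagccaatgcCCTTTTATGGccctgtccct
Myl7 CArG, chr11:5898824-5898853, minus strand: ccattcctctCCTTATTTGGgcctctgggt
Ldb3 CArG, chr14:34588697-34588726, minus strand: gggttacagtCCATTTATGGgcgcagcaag
Myom1 CArG, chr17:71019448-71019477, plus strand: gccttcctggCCATAAAAGGctggctgtgg
The MEF2 match of Ttn began 166 bases before the start and that of Pgam2 80 bases before it. The CArG matches of Myl3 and Myl7 began 85 and 61 bases before the start. Those of Ldb3 and Myom1 began 35 and 99 bases before it, and the MEF2 matches of Mybpc3 and Casq2 90 and 69 bases before it.

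The whole 250 bases before the start are shown for Tnnt2 and Tnnc1, the members with the highest mean values whose window overlaps no annotated exon. Capitals mark the CATTCC motif, which in Tnnc1 lies on the opposite strand and so reads GGAATG.
Tnnt2, chr1:135836084-135836333, plus strand: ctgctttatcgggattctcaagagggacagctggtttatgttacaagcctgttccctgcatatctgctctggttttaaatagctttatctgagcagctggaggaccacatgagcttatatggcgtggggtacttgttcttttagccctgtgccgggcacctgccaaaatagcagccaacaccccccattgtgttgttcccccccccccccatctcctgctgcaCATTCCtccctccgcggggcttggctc
Tnnc1, chr14:31208062-31208311, plus strand: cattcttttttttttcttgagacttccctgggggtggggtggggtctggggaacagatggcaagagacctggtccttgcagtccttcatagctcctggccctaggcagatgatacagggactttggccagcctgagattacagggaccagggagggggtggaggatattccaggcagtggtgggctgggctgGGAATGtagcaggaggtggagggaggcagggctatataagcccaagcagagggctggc
The motif began 27 bases before the start in Tnnt2 and 58 bases before it in Tnnc1.

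Itih5 was not lower in the libraries labelled knockdown. It was at 9.73, 13.1 and 17.2 in wild type 1, 2 and 3, against 18.4, 10.5 and 19.96 in labelled knockdown 1, 2 and 3, so the groups overlapped. The log2 difference from limma, here and below the libraries labelled knockdown minus wild type, was 0.26 (SE 0.27, adjusted p = 0.645), on the scale of log2(value + 1). Below, 3 values set against 3 others are wild type 1, 2 and 3 against labelled knockdown 1, 2 and 3. Directions in what follows are those of the labels. Values are on a scale close to TPM, a measure of transcript abundance, which corrects for transcript length. Column sums ran from 901558 to 1159650. The median of the values near 1 in a library, called its step here, ran from 0.889 to 1.16. Low values are thus coarse, though not all of them lie on whole steps. The table holds no counts, so the depth is unknown. Genes at 0 numbered 1082, 884 and 933 in wild type, against 212, 1039 and 731 in the libraries labelled knockdown. Labelled knockdown 1 thus had the fewest. It also held values far below its step of 1.16, such as 0.0235 for Myl7 and 0.0351 for Tnni1. Why that library differs in this way was not tested.

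As a sum, heart muscle transcripts were spread widely over the 3 libraries labelled knockdown and narrowly over the 3 wild-type libraries. The 37 members together made up 1.37%, 1.34% and 1.30% of the column sum in wild type 1, 2 and 3. In labelled knockdown 1, 2 and 3 they made up 3.25%, 1.88% and 1.13%. Labelled knockdown 1 and 2 thus lay above all wild-type libraries, and labelled knockdown 3 lay below them. Labelled knockdown 1 was the highest of the 6 libraries for 36 of 36 tested members, against 25.8% of all 14025 tested genes. Labelled knockdown 2 was above all wild-type libraries for 32 of 36 (30.2% of all genes). Labelled knockdown 3 was below all of them for 22 of 36 (26.8% of all genes) and above all of them for 5 (35.7% of all genes). The SD of the unlogged values over the libraries labelled knockdown was above that over the wild-type libraries for 36 of 36 members, against 62.1% of all genes. This count is not a separate result, because a library that is high for every member raises that SD. Among tested members the wild-type SD ran from 0.65% of the mean for Trdn to 45.9% for Ckm.

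The size of this spread can be given as each library's value divided by the wild-type mean of the gene. In labelled knockdown 1 the median ratio over the 36 members was 2.86, from 1.30 for Jph2 to 5.10 for Myl3. In labelled knockdown 2 it was 1.40, from 0.902 for Ckm to 1.99 for Ttn. In labelled knockdown 3 it was 0.827, from 0.491 for Tmod1 to 1.25 for Tcap. Over 2 times the wild-type mean were 31 of 36 members in labelled knockdown 1 (6.33% of all genes) and 0 of 36 in labelled knockdown 2 (2.06% of all genes).

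**Figure D1:**
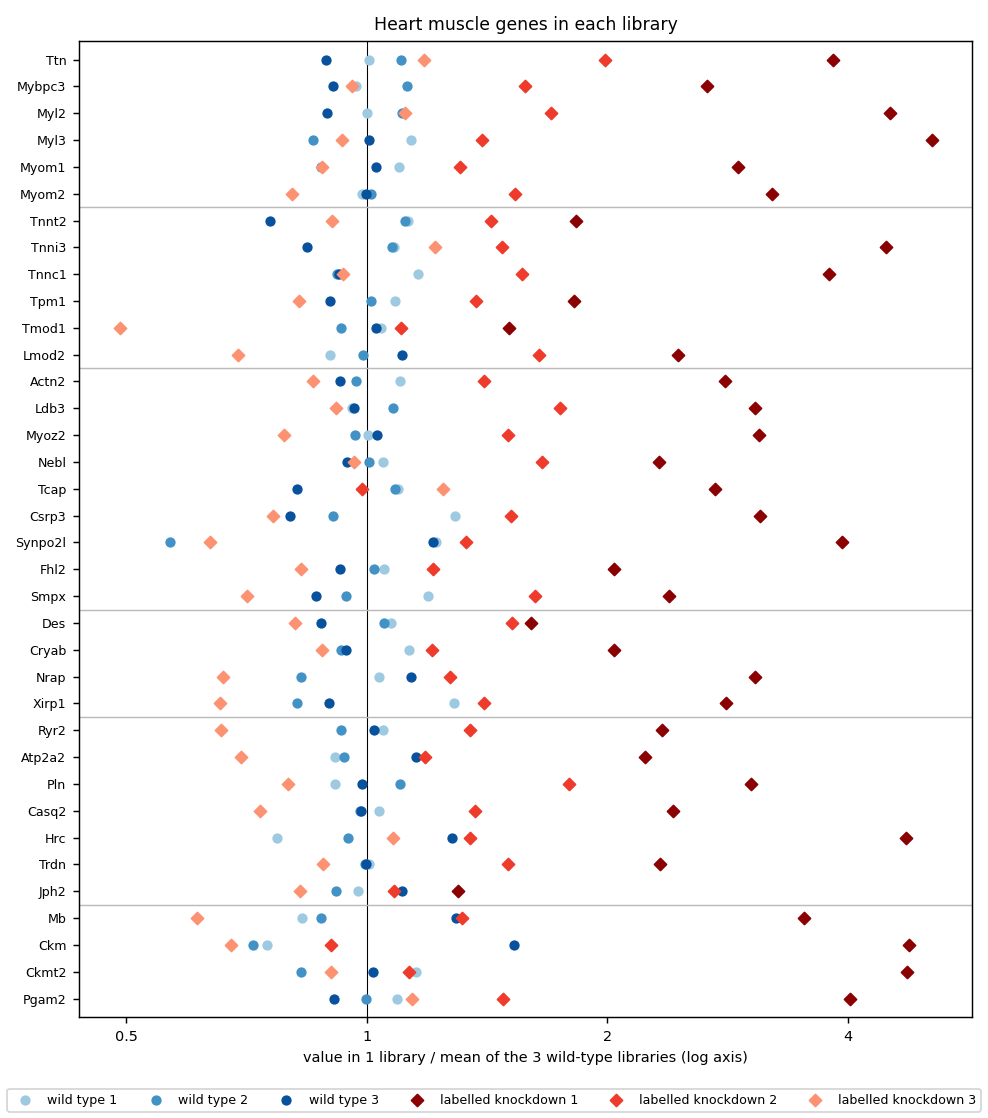
Each row is a tested heart muscle gene, grouped by role, and each point is the value in 1 library divided by the mean of the 3 wild-type libraries, on a log axis. Circles are wild-type libraries and diamonds are libraries labelled knockdown; the dark diamonds of labelled knockdown 1 lie farthest right in every row, with a median ratio of 2.86, and the pale diamonds of labelled knockdown 3 mostly lie left of 1, with a median of 0.827.

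As groups, the libraries labelled knockdown had a higher mean log2 value than wild type for 35 of the 36 members, where 50.8% of all tested genes did. No member passed the test. With limma, 0 of 36 members and 0 of 14025 genes (0%) had an adjusted p under 0.05. At an unadjusted p under 0.05, 1162 genes were higher and 919 lower. Of the members, 1 of 36 was higher at that unadjusted p, where 8.29% of all genes were. The groups did not overlap for 4 of 36 members, all higher in the libraries labelled knockdown, where 12.6% of all genes were higher without overlap. These shares of members are near or under those of all genes. The median log2 difference of the members was 0.59, against 0.0046 over all genes tested.

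That median depended on labelled knockdown 1. Without that library it was 0.13, with 27 members higher and 9 lower, and 3 of 36 members (Ttn, Tnni3 and Pgam2) were higher at an unadjusted p under 0.05, where 6.59% of all genes were in the same fit, a share close to that of the members. Without labelled knockdown 3 the median was 1.00, 32 of the 36 members were higher without overlap between the groups (19.8% of all genes in the same fit), and 31 were higher at that unadjusted p (9.55% of all genes). The count at that unadjusted p was 0 of 36 when any of the wild-type libraries was left out. In those fits 4.71%, 8.41% and 4.67% of all genes were higher at that p, without wild type 1, 2 and 3 in turn. No member passed after adjustment in any of these fits.

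**Figure D2:**
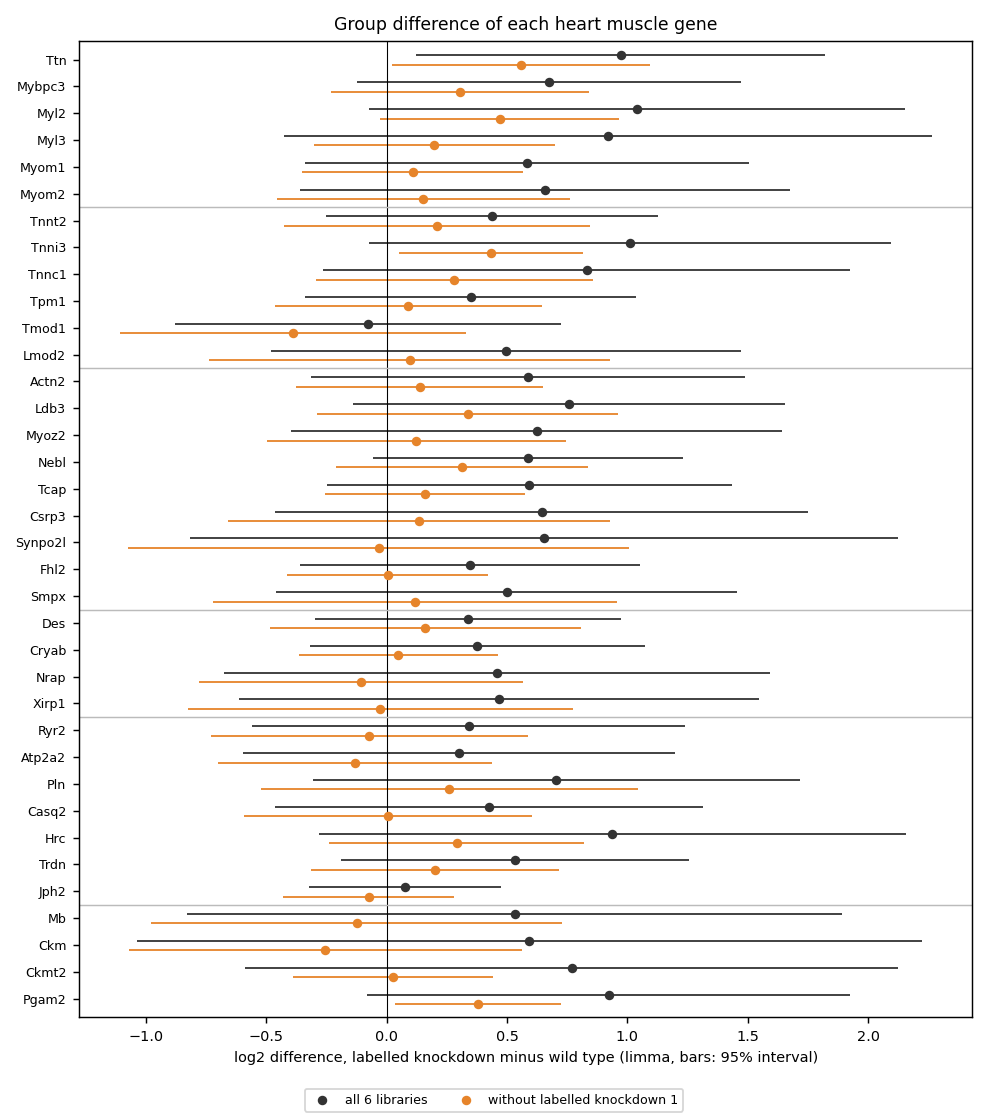
Each row is a tested heart muscle gene, and the points are the log2 difference between the libraries labelled knockdown and wild type from limma, with 95% intervals as bars, for all 6 libraries (black) and without labelled knockdown 1 (orange). With all libraries the points run from -0.08 for Tmod1 to 1.04 for Myl2, and the median of 0.59 became 0.13 without labelled knockdown 1.

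Thick filament genes, with titin and the M-band, had the largest median difference of the 6 roles. All 6 tested members had a higher mean, with a median log2 difference of 0.80, or 0.25 without labelled knockdown 1. Myl2 encodes the regulatory light chain of ventricular myosin and lies at chr5:122100951-122113472 on the plus strand. It was at 1561, 1726 and 1392 in wild type, against 7051, 2655 and 1743 in the knockdown-labelled group. The groups did not overlap, but labelled knockdown 3 was only 1.12 times the wild-type mean (log2 difference 1.04, SE 0.47, limma adjusted p = 0.351). Myl3, the ventricular essential light chain gene, was at 876, 661 and 775 against 3927, 1075 and 719. Here labelled knockdown 3 lay within the wild-type range (log2 difference 0.92, SE 0.57).

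Ttn encodes titin, the elastic protein that spans from Z-disc to M-band, and lies at chr2:76703980-76982547 on the minus strand. It was at 6.82, 7.48 and 6.02 in wild type, against 26.0, 13.5 and 7.98 in the knockdown-labelled group. The groups did not overlap, yet the gap between wild type 2 and labelled knockdown 3 was less than 1 step of the values. Its log2 difference was 0.97 (SE 0.36, limma unadjusted p = 0.0302, adjusted p = 0.310), and 0.56 without labelled knockdown 1. Mybpc3, the cardiac myosin-binding protein C gene, was at 255, 295 and 238 against 701, 415 and 251. The M-band genes Myom1 (82.1, 65.6 and 76.9 against 218, 98.1 and 65.9) and Myom2 (43.9, 45.1 and 44.4 against 143, 68.3 and 35.9) had the same order among the libraries labelled knockdown. Labelled knockdown 3 lay inside the wild-type range for Mybpc3 and Myom1 and below it for Myom2.

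Myl7 encodes the regulatory light chain of atrial myosin and stood apart from the others. It was listed at 1.96, 0.932 and 1.86 in wild type, which is 1 or 2 steps. It was listed at 0.0235 in labelled knockdown 1 and at 0 in labelled knockdown 2 and 3. Values this close to 0 give no fold and no test. The other atrial light chain gene, Myl4, was at 2.93, 2.81 and 2.68 against 3.46, 2.88 and 2.99, or about 3 steps in every library. The atrial marker list, of which 7 of 9 genes were in the table, summed to between 1624 and 2831 in wild type and to between 1432 and 3934 in the libraries labelled knockdown. Most of that sum is Nppa, the natriuretic peptide gene that ventricular muscle also turns on under stress (1145, 2216 and 1510 against 2212, 3303 and 903). Nppa was highest in labelled knockdown 2 rather than 1.

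Thin filament genes were higher by a median log2 difference of 0.47 (0.15 without labelled knockdown 1), 5 of 6 having a higher mean. Tnni3 encodes cardiac troponin I, the inhibitory subunit of the calcium switch, and lies at chr7:4518305-4524229 on the minus strand. It was at 728, 723 and 565 in wild type, against 2999, 993 and 817 in the knockdown-labelled group. The groups did not overlap (log2 difference 1.01, SE 0.46, limma adjusted p = 0.351), and without labelled knockdown 1 the difference was 0.43. Tnnc1, the gene of the calcium-binding subunit troponin C, was at 1102, 874 and 878 against 3603, 1488 and 888. Tnnt2, the gene of troponin T, which anchors the complex to tropomyosin, was at 1504, 1493 and 1011 against 2444, 1913 and 1209. Both overlapped between the groups through labelled knockdown 3.

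The 3 troponin subunits, which form 1 complex, differed in how high they were in labelled knockdown 1, the ratio to the wild-type mean being 4.46 for Tnni3, 3.79 for Tnnc1 and 1.83 for Tnnt2. In labelled knockdown 2 the same ratios were 1.48, 1.56 and 1.43. Tpm1 encodes alpha-tropomyosin, which smooth muscle and fibroblasts also make. It was at 1960.2, 1829 and 1624 against 3281, 2469.7 and 1484. Lmod2, a leiomodin gene that lengthens thin filaments, was at 109, 120.3 and 135 against 298, 199 and 83.8. Tmod1, the tropomodulin gene that caps their pointed ends, was at 12.7, 11.3 and 12.5 against 18.4, 13.5 and 5.98. Tmod1 was the only member with a lower mean log2 value in the knockdown-labelled group (log2 difference -0.08, SE 0.34), and it had the lowest ratio of any member in labelled knockdown 3.

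The order of the members by level differed between the libraries of the 2 labels. Among all 37 members, Tpm1 had the highest value in each wild-type library and Myl2 in each library labelled knockdown. The ratio of Myl2 to Tpm1 within a library was 0.796, 0.943 and 0.857 in wild type, against 2.15, 1.08 and 1.17 in the knockdown-labelled group. A ratio within a library is free of a factor shared by all its values, but the adjustment of these values is not stated and may be of another kind. Smooth muscle and fibroblasts also make Tpm1, and the part of cell content in this ratio was not tested. This pair was chosen after the values were seen, and the ratio was given no test.

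Z-disc genes, whose products anchor thin filaments and sense stretch, had a median log2 difference of 0.59 (0.14 without labelled knockdown 1), and all 9 had a higher mean. Actn2, the gene of the alpha-actinin that crosslinks actin at the Z-disc, was at 164, 145 and 138 against 418, 209 and 128. Ldb3, the gene of the adaptor cypher, was at 45.9, 51.7 and 46.2 against 147, 83.7 and 43.9. In both, labelled knockdown 3 lay below every wild-type library. Ldb3 had the largest log2 difference of the Z-disc genes (0.76, SE 0.38, limma adjusted p = 0.375).

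Myoz2, the gene of the calcineurin-binding calsarcin 1, was at 126, 121 and 129 against 389, 189 and 98.8. Csrp3, the muscle LIM protein gene, was at 268, 189 and 167 against 645, 315 and 159. Nebl, the nebulette gene, was at 9.77, 9.38 and 8.79 against 21.6, 15.4 and 8.98. In all 3 genes labelled knockdown 1 and 2 lay above wild type, and labelled knockdown 3 did not. The LIM domain gene Fhl2 (341, 332 and 301 against 662, 393 and 268) and the small stretch-linked gene Smpx (179.8, 142 and 129.9 against 359, 245 and 107) had the same pattern.

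Tcap departed from that pattern. It encodes telethonin, which caps titin at the Z-disc, and was at 216, 214 and 162 in wild type, against 538, 194 and 246 in the knockdown-labelled group. It was 1 of 4 members in which labelled knockdown 2 was not above all wild-type libraries, and it had the highest ratio of any member in labelled knockdown 3. Synpo2l, which encodes an actin-binding Z-disc protein, followed the pattern, at 44.0, 20.4 and 43.6 against 142, 48.0 and 22.9, but was uneven in wild type. Its wild type 2 was at 0.567 times the wild-type mean, the lowest ratio of any member in a wild-type library.

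Genes of the desmin network and the intercalated disc had a median log2 difference of 0.42, and of 0.012 without labelled knockdown 1. Des, the gene of the intermediate filament desmin, which smooth muscle also makes, was at 961, 943 and 786 against 1439, 1364 and 730.5. Labelled knockdown 1 and 2 were nearly alike for Des, at 1.61 and 1.52 times the wild-type mean. Cryab, the gene of a small heat shock protein that protects desmin, was at 970, 797 and 809 against 1749, 1036 and 755. Nrap (23.5, 18.8 and 25.8 against 69.4, 28.8 and 14.97) and Xirp1 (17.6, 11.2 and 12.3 against 38.6, 19.2 and 8.98), both genes of actin-binding proteins of the cell junctions, were farther apart. In all 4 genes of this role labelled knockdown 3 lay below all wild-type libraries.

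Calcium-handling members had a median log2 difference of 0.43, which was 0.0054 without labelled knockdown 1, and none of the 7 was free of overlap between the groups. Ryr2, the gene of the calcium release channel, was at 12.7, 11.3 and 12.4 in wild type, against 28.4, 16.3 and 7.98 in the knockdown-labelled group. Atp2a2, the gene of the calcium pump SERCA2, was at 248, 255 and 313 against 607, 322 and 189.6. Pln, the gene of phospholamban, which restrains that pump, was at 120.1, 145 and 129.9 against 398, 236 and 105. For all 3 genes labelled knockdown 1 and 2 were above the wild-type range and labelled knockdown 3 below it.

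The ratio to the wild-type mean in labelled knockdown 1 was 3.03 for Pln and 2.23 for Atp2a2, and in labelled knockdown 2 it was 1.79 and 1.18. Casq2, the gene of the calcium-storing calsequestrin, was at 115, 109 and 109 against 269, 152 and 81.8. Trdn, the gene of triadin, which ties calsequestrin to the release channel, was at 34.2, 33.8 and 33.8 against 79.1, 51.0 and 29.9. Hrc, the gene of another calcium-binding protein of the store, was at 21.4, 26.3 and 35.5 against 131, 37.4 and 29.9, and had the largest log2 difference of the calcium genes (0.94, SE 0.52, limma adjusted p = 0.402). Jph2, the gene of junctophilin 2, which holds the store against the surface membrane, was at 45.9, 43.2 and 52.3 against 61.3, 51.0 and 38.9. Its log2 difference was 0.08 (SE 0.17), or -0.065 with all libraries rescaled to the same sum, and it had the smallest ratio of any member in labelled knockdown 1.

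The genes of energy and oxygen supply had the largest median ratio of any role in labelled knockdown 1, at 4.38, and a median log2 difference of 0.68. Without labelled knockdown 1 that median was -0.05. Mb, the gene of the oxygen store myoglobin, was at 731, 771 and 1137 in wild type, against 3102, 1157 and 539.9 in the knockdown-labelled group. Ckm, the muscle creatine kinase gene, was at 16.6, 16.0 and 33.9 against 106, 19.98 and 14.97. Ckmt2, the gene of the mitochondrial creatine kinase of striated muscle, was at 229, 164 and 202 against 940.3, 224 and 179. In Ckm and Ckmt2 labelled knockdown 2 lay within the wild-type range, so the high mean of the knockdown-labelled group came from labelled knockdown 1.

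Pgam2, the muscle phosphoglycerate mutase gene, lies at chr11:5801640-5803733 on the minus strand. It was at 182, 166 and 151 against 669.6, 246 and 189.6, and its groups did not overlap (log2 difference 0.92, SE 0.43, limma adjusted p = 0.351). Without labelled knockdown 1 the difference was 0.38. Ttn, Myl2, Tnni3 and Pgam2 are thus the members higher in each library labelled knockdown than in each wild-type library. In all 4 the lowest library labelled knockdown was labelled knockdown 3, at 1.18, 1.12, 1.22 and 1.14 times the wild-type mean.

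The members were also set against other genes of the sarcomere in the same library. The reference was the mean log2 value of 39 sarcomere genes that are not members, and it stood 1.03 above its wild-type mean in labelled knockdown 1, 0.37 above it in labelled knockdown 2 and 0.12 below it in labelled knockdown 3 (a log2 difference of -0.12). Relative to it, 29 of 36 members were above their own wild-type mean in labelled knockdown 1, 27 in labelled knockdown 2 and 10 in labelled knockdown 3. In labelled knockdown 1 the largest log2 excess over the reference was that of Myl3 (1.32), followed by Ckm (1.26), Ckmt2 (1.22), Hrc (1.20), Myl2 (1.15) and Tnni3 (1.13). Farthest below the reference there were Jph2 (-0.66), Tmod1 (-0.48), Des (-0.34), Tpm1 (-0.17) and Tnnt2 (-0.14). The values are a description of 1 library and were given no test. Some reference genes have low values, such as Tnni1 (mean 1.12), and the log2(value + 1) scale understates their changes. Of the 39, 34 had a higher mean log2 value in the libraries labelled knockdown and 5 a lower one. Among the 5 was Tpm2 (263, 242 and 280 against 151, 214 and 272). An excess over this reference can therefore not be read as an excess within muscle cells.

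**Figure D3:**
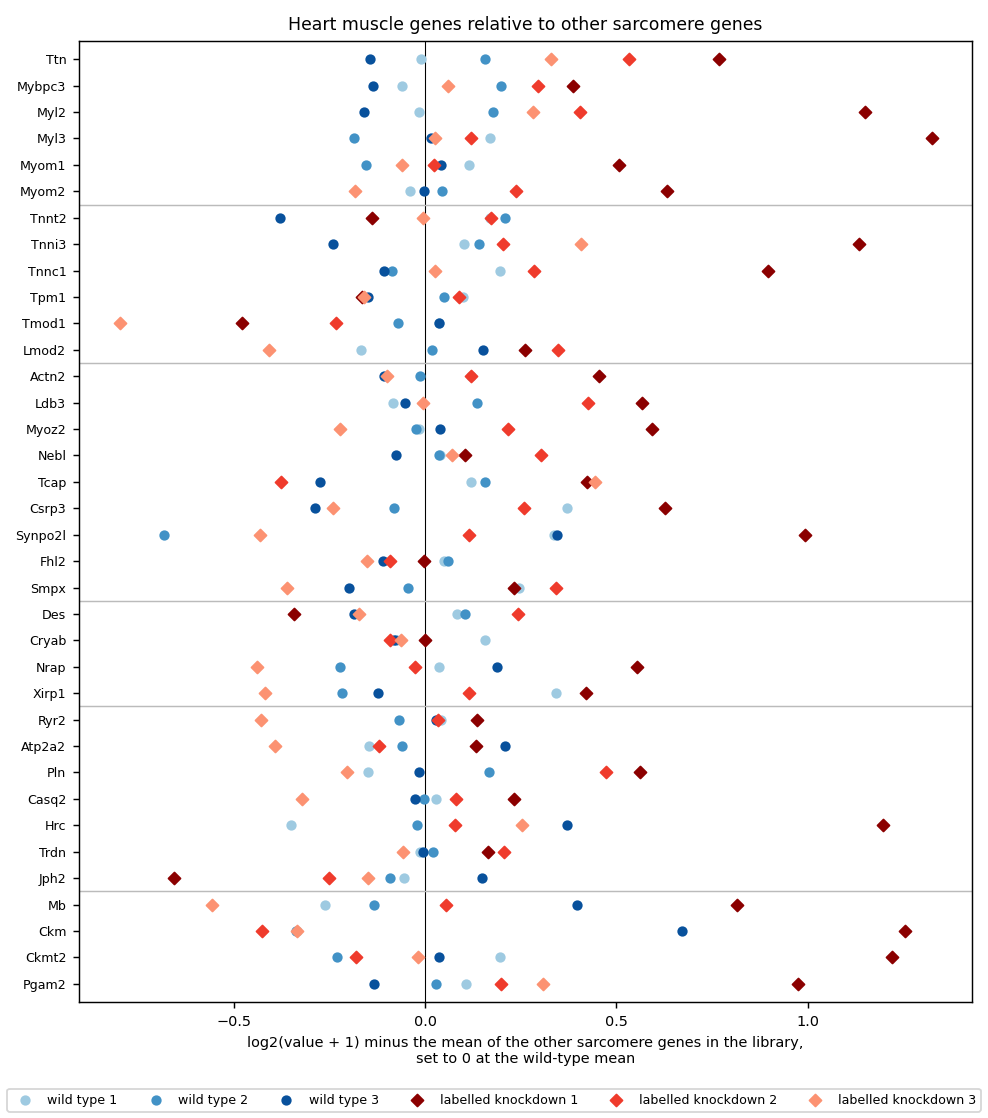
Each row is a tested heart muscle gene, and each point is its log2(value + 1) in 1 library minus the mean of 39 other sarcomere genes in that library, set to 0 at the wild-type mean. Labelled knockdown 1 (dark diamonds) runs from -0.66 for Jph2 to 1.32 for Myl3.

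Other genes of the same machinery were read from the same fit, and none passed the test. Of the 39 other sarcomere genes tested, 34 had a higher mean in the libraries labelled knockdown, with a median log2 difference of 0.34, and 0.09 without labelled knockdown 1. The 4 with the highest values were the cardiac actin gene Actc1 (log2 difference 0.31, SE 0.37), the stress-responsive Ankrd1 (0.34, SE 0.44), the skeletal actin gene Acta1 (1.11, SE 0.80) and the alpha-myosin heavy chain gene Myh6 (0.99, SE 0.45). Myh6 was at 265, 277 and 272 in wild type, against 1214, 354 and 367 in the knockdown-labelled group, and its groups did not overlap. Acta1 was at 213, 150.0 and 418 against 1770.1, 439 and 175, the widest spread of these 4. Over the whole list, 4 of 39 genes were higher without overlap, where 12.6% of all tested genes were.

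Of 33 other calcium-handling genes, 23 had a higher mean and 10 a lower one, with a median log2 difference of 0.10. Without labelled knockdown 1 the median was -0.021, with 15 higher and 18 lower. Those named for their high values were the calcium-binding chaperone gene Calr (log2 difference -0.18, SE 0.16), S100a1 (0.60, SE 0.29), which encodes a calcium sensor abundant in heart muscle, and Calm2 (-0.15, SE 0.11), a calmodulin gene. S100a1 was at 496, 583 and 520 against 1242, 783 and 536, in the order of the members. Calr, which most cell types express, was not ordered that way and was at 1241, 1221 and 1185 against 870.0, 1163 and 1222. Cacna1c, the gene of the cardiac L-type calcium channel, was named after its values were seen. It was at 7.79, 8.41 and 6.98 against 21.5, 12.5 and 10.98, without overlap (log2 difference 0.82, SE 0.23, limma adjusted p = 0.296). Over this list, 1 of 33 genes was higher without overlap, where 12.6% of all tested genes were.

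All 14 other muscle energy genes had a higher mean, with a median log2 difference of 0.58, and 0.18 without labelled knockdown 1. The 4 with the highest values were the fatty acid-binding gene Fabp3 (566, 562 and 679 against 2619, 911 and 388), the muscle cytochrome oxidase subunit genes Cox6a2 (log2 difference 0.86, SE 0.47) and Cox8b (1.01, SE 0.46), and the lactate dehydrogenase gene Ldhb (0.55, SE 0.38). Of 18 regulators of heart muscle transcription, 14 had a higher mean, with a median log2 difference of 0.22, and 0.10 without labelled knockdown 1 (12 higher and 6 lower). These included Mef2a, a gene of the factor family that reads the MEF2 motif, at 56.6, 57.2 and 59.3 against 76.4, 71.3 and 61.9. Its groups did not overlap, and its log2 difference of 0.27 (SE 0.10, limma adjusted p = 0.316) was smaller than the median of the members. Of the 18 regulators, 3 were higher without overlap, where 12.6% of all tested genes were. Tbx20 (0.22, SE 0.14), Esrra (0.21, SE 0.16) and Srf (-0.13, SE 0.16), the gene of the factor that reads the CArG motif, were the other 3 with the highest values.

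Other cell types and mitochondrial RNA varied over the same libraries. Transcripts encoded by the mitochondrial genome made up 13.8%, 11.5% and 10.9% of the column sum in wild type, against 32.6%, 14.8% and 20.2% in labelled knockdown 1, 2 and 3. With these left out of the sum, the members made up 1.59%, 1.51% and 1.46% in wild type, against 4.83%, 2.20% and 1.42% in the knockdown-labelled group. The order of the libraries was thus the same with and without mitochondrial RNA. The mitochondrial share was higher in labelled knockdown 3 than in 2, which is not the order of the members.

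Macrophage markers were lowest in labelled knockdown 1, the library in which muscle genes were highest. All 12 macrophage markers were in the table and none was at 0. Their summed level ran from 9077 to 12048 in wild type and was 4257, 8494 and 7322 in labelled knockdown 1, 2 and 3, so labelled knockdown 3 was low for macrophage markers and muscle genes alike. All 10 endothelial markers summed to 855 to 879 in wild type and to 1739, 757 and 1236 in the libraries labelled knockdown, and all 10 fibroblast markers to 19078 to 22214 and 13568, 21237 and 18695. Red blood cell markers (6 of 6 in the table, 252 to 668 in wild type) were at 2579.7, 346 and 1039.9. The endothelial and red blood cell sums were high in labelled knockdown 1 and 3, unlike the muscle genes, which were high in 1 and 2.

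B cell markers (6 of 6 in the table, 1967 to 3363 in wild type) were at 539, 508 and 2106 in labelled knockdown 1, 2 and 3, and mesothelial markers (7 of 7, 87.7 to 129.9) at 20.1, 35.3 and 177. Both were low in the 2 libraries in which heart muscle genes were high. Adipocyte markers (7 of 7) were at 832 to 1707 against 1037, 229.9 and 2012. That sum hides a split, since Fabp4, which capillary endothelium also makes, was at 1032 in labelled knockdown 1, whereas the adipocyte gene Cfd was at 1.44 and 3.47 in labelled knockdown 1 and 2 and at 852 in labelled knockdown 3. Neutrophil markers (6 of 6) were at 41.9 to 123 against 31.9, 46.9 and 73.9. Smooth muscle and pericyte markers, all 10 in the table, were at 0.893 to 1.03 times the wild-type mean in the libraries labelled knockdown, at 2896 to 3158 against 3109.7, 3114 and 2686. This sum includes the member Des, at 961, 943 and 786 against 1439, 1364 and 730.5. Acta2, the marker of this list with the highest mean, was at 1247, 1117 and 1471 against 620, 1023 and 1080. Of the 10 markers, 5 had a higher mean log2 value in the libraries labelled knockdown and 5 a lower one. The part of these cell types and of the mitochondrial share in the differences of the members was not tested.

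Skeletal muscle markers were low beside the heart muscle genes. Of 14 skeletal muscle markers 7 were in the table, and the fast myosin genes Myh1, Myh2 and Myh4 were not among them. The 7 summed to 87.8 to 115 in wild type and to 169, 141 and 115 in the libraries labelled knockdown, against sums of 11729 to 13363 and of 37720, 18053 and 11309 for the heart muscle members. Most of the skeletal sum was the light chain gene Myl1, at 59.5 to 84.6 in wild type, against 140.5, 94.4 and 73.8 in the knockdown-labelled group.

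**Figure D4:**
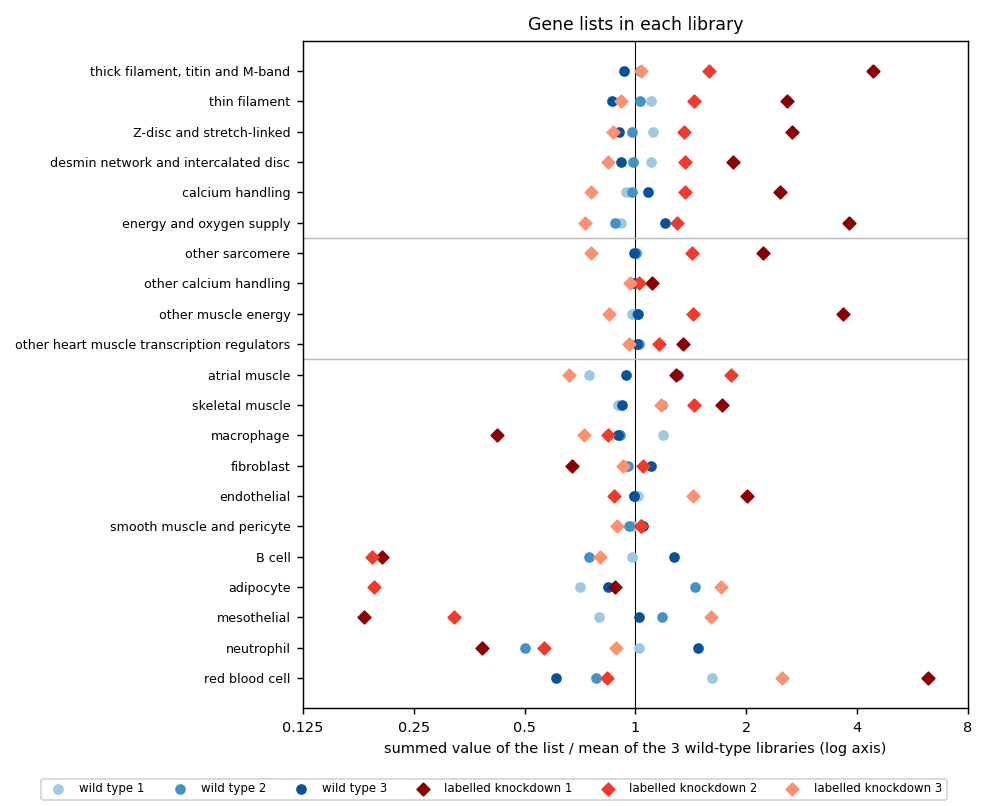
Each row is a gene list, and each point is its summed value in 1 library divided by the mean of the 3 wild-type libraries, on a log axis; circles are wild type and diamonds are labelled knockdown. The 6 heart muscle roles at the top have labelled knockdown 1 and 2 to the right of wild type, the macrophage sum has labelled knockdown 1 at 0.421, and the B cell and mesothelial sums have labelled knockdown 1 and 2 at 0.183 to 0.321.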

How the data were processed

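Poly(A)-enriched RNA of infarcted mouse myocardium was sequenced in 6 libraries, 3 labelled wild type and 3 labelled ITIH5 knockdown. The labels' protocols name 2 library kits and do not assign them to libraries. Reads were processed on mm10, per the submitters' processing notes; the sources used here name no aligner, quantifier or annotation. A single table was deposited by the authors, and its name says TPM, but its values are an adjusted score, because column sums differ between libraries (901558 to 1159650), which plain TPM does not allow. The adjustment is not stated. The plan had assumed TPM, and its test was used unchanged.

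Where a symbol occurred more than once, the entry of highest mean stood for it, which dropped 6 entries. A further 8 symbols had become dates and belong to no list. The scale was log2(value + 1), and 14025 genes had a mean of 1 or more. They were tested with limma 3.58.1 in R 4.3.3 (moderated test with intensity trend, no covariate) and Benjamini-Hochberg adjustment over all tested genes at 0.05. Fold changes on that scale understate the change of low genes. The exact two-sided permutation test for Itih5, also on the log2 scale, gave p = 0.5, where the smallest p that 3 against 3 libraries allow is 0.1. The fit was tested on simulated data.

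The members and all gene lists were chosen with earlier results of these data known. Every member is named, and of each other list of the machinery up to 4 genes with the highest mean. Cacna1c, Tpm2, Tnni1 and the marker genes Myl4, Nppa, Fabp4, Cfd, Acta2 and Myl1 were chosen after their values were seen. Some genes under this rule are not reported here. Des stands in both the member and the smooth muscle lists, and Myl4 in both the other sarcomere and the atrial lists. Coordinates are those of GENCODE M21 on mm10, counted from 1, and sequences are RefSeq's on GRCm38.p6. Alternatives covered the pseudocount, the filter, the scaling between libraries, limma's options, a replicate block and leaving out each library. Precision is limited by the unknown depth and by the step of low values.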

Additional observations from a re-analysis of the deposited data

How the results depend on the processing

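No gene of any setting passed as higher, and no member passed in either direction. For all tested genes together, the number called lower ran from 0 to 13 over the fits that left out 1 library (2 without wild type 2 and 13 without labelled knockdown 3). Over those fits the count of members higher at an unadjusted p under 0.05 ran from 0 to 31, and the count without overlap from 4 to 32, both highest without labelled knockdown 3. The matching shares of all tested genes ran from 4.67% to 9.74% and from 16.1% to 21.7%. The cause was not tested.

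The median log2 difference of the members ran from 0.13 (without labelled knockdown 1) to 1.00 (without labelled knockdown 3) when 1 library was left out, and from 0.45 to 0.65 under the other settings. The lowest of the latter came with rescaling to the same sum. Under it 3 of 36 members were higher without overlap, where 5.95% of all tested genes were. The replicate number as a block gave 9 members higher at an unadjusted p under 0.05, against 1 without the block, and 0 after adjustment. Under the block 7.41% of all tested genes were higher at that unadjusted p, against 8.29% without it. Deviations from the group means correlated at 0.056, 0.061 and 0.14 for libraries of the same number 1, 2 and 3. For unlike numbers the correlations ran from -0.109 (wild type 3 with labelled knockdown 2) to 0.0595 (wild type 1 with labelled knockdown 2). These values do not settle whether the numbers pair the libraries.

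Of the 36 members, Jph2 changed sign with rescaling to the same sum (-0.065), a setting that lowered the median of all tested genes to -0.13. Without labelled knockdown 1, 8 members changed sign, and all 8 were higher without labelled knockdown 3. Their values in these 2 fits were -0.034 and 1.25 for Synpo2l, -0.11 and 0.96 for Nrap, -0.026 and 0.97 for Xirp1, -0.072 and 0.78 for Ryr2, -0.13 and 0.71 for Atp2a2, -0.074 and 0.25 for Jph2, -0.13 and 1.14 for Mb, and -0.25 and 1.12 for Ckm. Tmod1 was at -0.39 and 0.34. These changes of sign were not tested for a cause.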
